A study of Mus musculus with 2 samples.

Results

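The SR proteins, the heterogeneous nuclear ribonucleoproteins (hnRNPs) and the numbered RNA-binding motif (RBM) proteins were examined in neurons and in neural progenitor cells (NPCs) of the mouse cortex. Members were taken by symbol, as every listed gene named Srsf or Sfrs with a number, Hnrnp or Hnrp with any ending, or Rbm with a number, the numbered names also with a final a or b. This gave 67 of the 20373 listed genes, 12 of them SR genes, 20 hnRNP genes and 35 RBM genes. RNA was sequenced from 1 neuron library and 1 NPC library, made from embryos at embryonic day 15.5. All embryos carried Nestin-GFP, a green reporter driven by Nestin sequences, and DCX-mRFP, a red reporter driven by doublecortin sequences, and no other allele or treatment is given. Cells with both colours were sorted as neurons and green cells as NPCs, so green was common to both populations and red set the neurons apart. Reads on listed genes came to 23312054 in neurons and 26346226 in NPCs.

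SR proteins and hnRNPs are abundant nuclear proteins that coat new transcripts and steer the choice of splice sites. SR proteins carry RNA recognition motifs and a tail rich in arginine and serine, and bound to exons they mostly promote exon inclusion. Many hnRNPs oppose them, and both classes also act in export, translation and decay of mRNA. RBM is a naming class rather than a family by descent, and its proteins work in the spliceosome, the nucleolus, RNA decay and RNA methylation, with some restricted to a few tissues. Alternative splicing is widely regulated in the developing brain as progenitors become neurons.

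Levels are in CPM (counts per 1000000), computed with the same constant for both libraries, so that the authors' scaling between them was kept. Genes reaching 1 CPM in either library were kept, which left 64 of the 67 members and 12693 of all genes. Ratios over groups are log2((neuron + 1)/(NPC + 1)) in CPM, which understates differences of low genes, while folds of single genes are ratios of CPM without the added 1. The bracketed range beside a fold is its 95% counting interval, an exact Clopper-Pearson interval from the reads. It covers counting error only, and with 1 library per population no difference has a replicate check or a p-value. The reads carry no molecular identifiers, so copies of 1 molecule may be counted as separate reads and the interval may be too narrow. A gene is counted as higher or lower in neurons where this interval leaves out equality, and otherwise no difference was detectable at this depth. In bulk libraries fewer cells of a type and less RNA per cell cannot be told apart.

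The sort was checked with the genes behind the reporters. Nes was at 189.5 CPM in neurons and 409 CPM in NPCs, and Dcx at 3294 CPM in neurons and 2522 CPM in NPCs. Of the marker genes past 1 CPM, all 9 for radial glia and all 9 for dividing cells were lower in neurons, while 9 of 10 neuronal markers were higher there. The summed level of dividing cell markers was 627 CPM in neurons and 1830.5 CPM in NPCs. The neuron library thus still held transcripts of dividing cells. Neuronal markers summed to 9734 CPM in neurons and 6217 CPM in NPCs, so the NPC library likewise held transcripts of neuronal genes. The effect of this overlap on the ratios of the members was not tested. Other cell types differed too. Summed markers of pericytes and mural cells were at 14.3 CPM in neurons and 212 CPM in NPCs, of the endothelium at 4.31 CPM in neurons and 24.3 CPM in NPCs, and of the oligodendrocyte lineage at 28.97 CPM in neurons and 81.8 CPM in NPCs. Summed markers of microglia and macrophages were at 204 CPM in neurons and 50.8 CPM in NPCs. Those of Cajal-Retzius cells were at 495 CPM in neurons and 133 CPM in NPCs. Of this last sum, Reln made up 434 CPM in neurons and 95.8 CPM in NPCs. Ebf3 of the same list was 1.33-fold lower in neurons (1.12 to 1.59). Interneuron markers summed to 231 CPM in neurons and 324 CPM in NPCs. Red blood cell genes summed to 167 CPM in neurons and 179.7 CPM in NPCs. In that sum Hba-a1 and Hba-a2 had identical reads, as did Hbb-b1 and Hbb-b2, so the same reads may be counted more than once. No gene of these marker lists was at 0 in either library.

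Most splicing regulator genes were slightly lower in neurons, and few differed by much. Of the 64 members past 1 CPM, 9 were higher in neurons (14.1%), beside 33.6% of all genes compared, and 40 were lower in neurons (62.5%), beside 34.6% of all genes. For the other 15 no difference was detectable. When the libraries were instead scaled by total reads, 6 members were higher in neurons and 47 were lower, beside 27.6% and 41.8% of all genes. With that scaling Hnrnpa3, Rbm4 and Rbm6 were no longer higher in neurons beyond counting error, and Hnrnpab, Hnrnpr, Rbm14, Rbm22, Rbm25, Rbm33 and Srsf7 became lower. By the sign of the log2 ratio alone, whatever its interval, 16 members were on the neuron side and 48 (75.0%) on the NPC side, beside 49.3% and 50.7% of all genes, and 55 (85.9%) were on the NPC side with scaling by total reads, beside 58.1% of all genes. The median log2 ratio of the members was −0.156, a level in neurons 0.898 times that in NPCs, beside −0.005 for all genes. Of the 42 members that reached 100 CPM in a library, 5 were higher in neurons (11.9%) and 29 were lower (69.05%). Of all 3003 genes at that level, 46.3% were higher in neurons and 36.7% were lower. With scaling by total reads, 3 members at that level were higher in neurons and 34 were lower, beside 38.6% and 46.5% of all genes at that level.

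**Figure D1:**
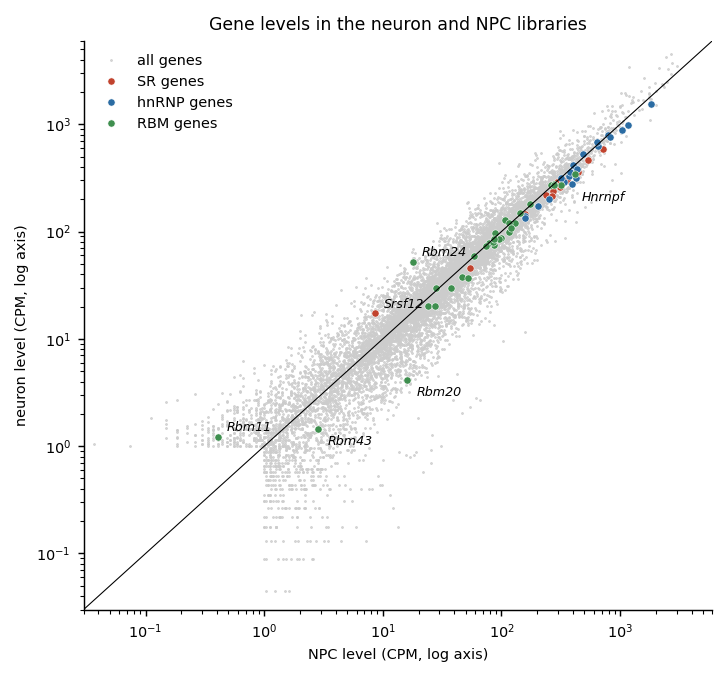
Level of each gene in the neuron library (vertical, CPM, log axis) against the NPC library (horizontal, CPM, log axis), with grey points for all genes past 1 CPM in a library, coloured points for SR, hnRNP and RBM genes, and the line of equal levels. Genes at 0 in a library cannot be drawn. Most coloured points lie near or just under the line, with Rbm24, Srsf12 and Rbm11 above it and Rbm20 and Rbm43 below it.

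Large differences were few. With 1 CPM added to each level, 1 member, Rbm24, was at least 2-fold higher in neurons, beside 3.85% of all genes, and 1 member, Rbm20, at least 2-fold higher in NPCs, beside 6.73% of all genes. With 0.1 CPM added, 3 members were at least 2-fold higher in neurons, Rbm24, Rbm11 and Srsf12, beside 5.71% of all genes. The counts that follow are again with 1 CPM added. At least 1.5-fold higher in neurons were 3 members, Rbm24, Srsf12 and Rbm11, beside 10.6% of all genes. At least 1.5-fold higher in NPCs were 2 members, Rbm20 and Rbm43, beside 13.1% of all genes. The other 59 members (92.2%) lay within 1.5-fold, as did 76.3% of all genes. Within 1.25-fold lay 51 members (79.7%), beside 58.2% of all genes. All 42 members with at least 100 CPM in a library lay within 1.5-fold, beside 83.3% of all genes at that level. The 5 genes beyond that were at most 52.2 CPM in either library, so the strongest differences sat among the members with fewer reads.

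The members that differed most were tissue-restricted RBM genes. Rbm24, known as a splicing regulator of heart and skeletal muscle, was at 52.2 CPM in neurons (1189 reads) and 17.9 CPM in NPCs (484 reads). It was 2.91-fold higher in neurons (2.61 to 3.24), and its log2 ratio of 1.49 stood at percentile 99.3 of all genes compared. Its close relative Rbm38, a p53 target that acts on mRNA stability, was at 20.4 CPM in neurons and 24.1 CPM in NPCs, 1.18-fold lower in neurons (1.04 to 1.33). The order of the pair therefore differed between libraries: Rbm24 had 2.56 reads for each read of Rbm38 in neurons (2.30 to 2.85) and 0.746 in NPCs (0.662 to 0.840). The genes differ in length, so this ratio is read only between libraries. The marker lists for neurons (median log2 ratio 0.88), microglia and macrophages (1.70) and Cajal-Retzius cells (1.26) were also higher in neurons. In these lists 9 of 10, 14 of 14 and 6 of 7 markers were higher, while Rbfox3 of the neuronal and Ebf3 of the Cajal-Retzius list were lower. The part of any of these cells in the Rbm24 difference was not tested.

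Rbm20, the splicing regulator of titin in heart muscle, was at 4.13 CPM in neurons (94 reads) and 16.1 CPM in NPCs (435 reads). It was 3.91-fold lower in neurons (3.12 to 4.94), with a log2 ratio of −1.74 at percentile 1.16 of all genes. This was the largest fold of any member past 1 CPM. Of the 10 pericyte and mural cell markers past 1 CPM, 8 were at least 2-fold lower in neurons and 2 did not differ detectably, with a median log2 ratio of −2.71. The lists for radial glia (median −1.64), dividing cells (−1.48), intermediate progenitors (−1.54), endothelium (−1.25), the oligodendrocyte lineage (−2.55) and interneurons (−0.50) were also lower in neurons. Rbm20 went the same way as these 7 lists, and the part of any of these cells in its level was not tested.

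Rbm11, a splicing regulator known from brain and testis, was low throughout, at 1.23 CPM in neurons (28 reads) and 0.408 CPM in NPCs (11 reads). It was 3.02-fold higher in neurons (1.45 to 6.71), an interval that its few reads leave wide. Rbm43 was at 1.45 CPM in neurons (33 reads) and 2.85 CPM in NPCs (77 reads), 1.97-fold lower in neurons (1.29 to 3.06). Both would be missed at a minimum of 10 CPM. Rbm45, an RNA-binding protein first described in developing rat brain, was at 59.4 CPM in neurons and 58.7 CPM in NPCs, with no difference detectable beyond counting error (1.01-fold, 0.941 to 1.09).

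The 3 members below the minimum were Rbm44, Rbm46 and Rbm47. Rbm47, a splicing and RNA editing factor of epithelia, had 8 reads in neurons and 2 in NPCs, a 4.75-fold ratio whose interval includes equality (0.945 to 45.8). Rbm46, a germ cell protein, had 1 read in neurons and 7 in NPCs, a ratio 5.85-fold lower in neurons whose interval also includes equality (0.760 to 266). Rbm44 had 2 reads in neurons and 1 in NPCs. The interval of Rbm44 includes equality as well (0.123 to 139.7), so no difference was detectable at this depth. For scale, 3 reads within a library equal 0.132 CPM in neurons and 0.111 CPM in NPCs.

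**Figure D2:**
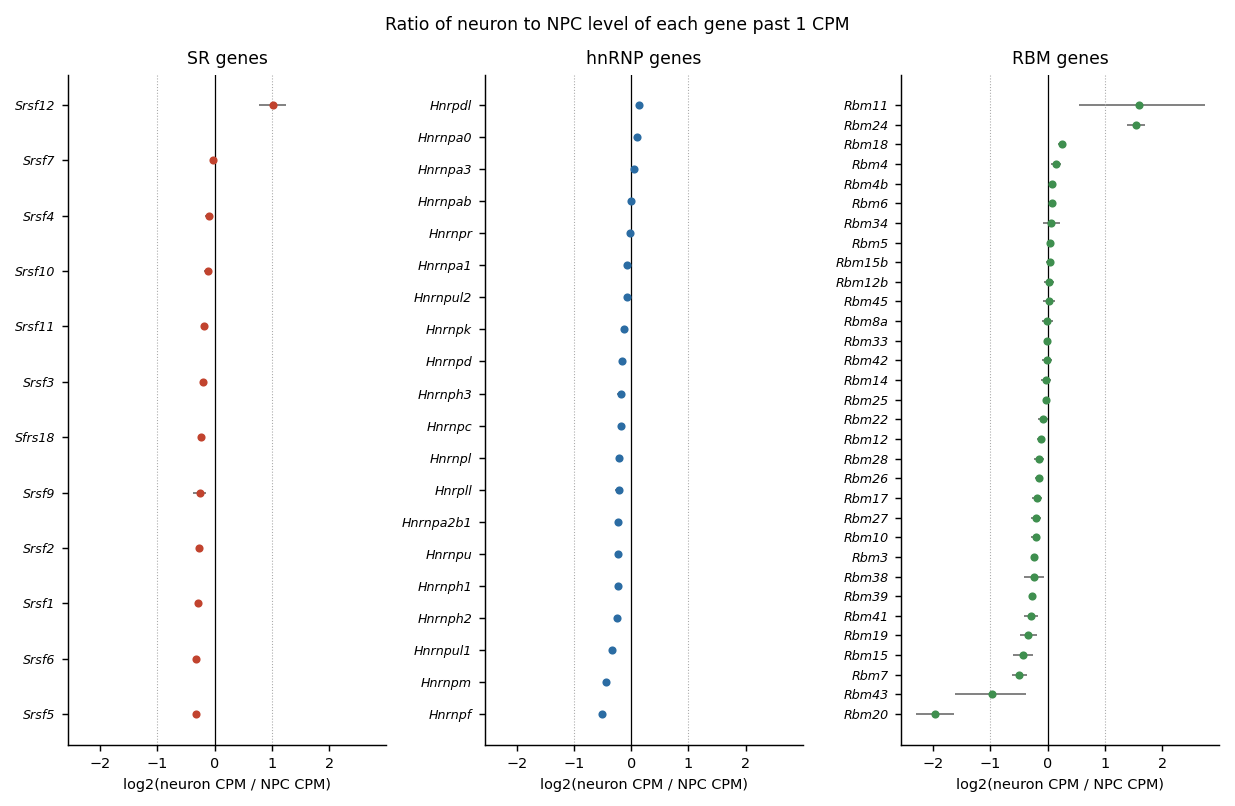
Ratio of the neuron to the NPC level of the 64 genes past 1 CPM (horizontal axis, log2 of the CPM ratio without an added value), by class and ordered by ratio, with bars for the 95% counting interval and dotted lines at 2-fold. The SR and hnRNP genes other than Srsf12 sit in a narrow band, and the widest bars belong to Rbm11 and Rbm43.

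SR genes were mostly lower in neurons. Of 12 SR genes, 10 were lower in neurons (83.3%, beside 34.6% of all genes), Srsf12 was higher and Srsf7 did not differ detectably. The median log2 ratio was −0.220 (0.858 times the NPC level), and the summed level was 3146 CPM in neurons and 3668 CPM in NPCs. Of the 8 classical SR genes 7 were lower in neurons, and the log2 ratios of all 8, Srsf7 included, ran from −0.33 to −0.03. Srsf5, first described as an insulin-induced gene of rat liver, was at 214 CPM in neurons and 268 CPM in NPCs, 1.25-fold lower in neurons (1.21 to 1.30). Its relative Srsf6 was at 355 CPM in neurons and 444 CPM in NPCs, also 1.25-fold lower (1.22 to 1.29). Srsf4, the other member of this subgroup with a pair of RNA recognition motifs and a long arginine-serine tail, was at 146 CPM in neurons and 157 CPM in NPCs, 1.07-fold lower (1.03 to 1.12). The subgroup thus shared a direction with unequal size. Of the Srsf4 exon bases, 43.02% also lie in a gene on the opposite strand, and Srsf5 has 1 near-identical pseudogene. The inequality within the subgroup is therefore uncertain.

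Srsf1, the founding SR protein and a general splicing activator, was at 590.4 CPM in neurons and 719.6 CPM in NPCs, 1.22-fold lower in neurons (1.19 to 1.25). Its paralog Srsf9 had a similar ratio at a lower level, with 45.3 CPM in neurons and 54.5 CPM in NPCs (1.20-fold lower, 1.11 to 1.30). Srsf2, known as SC35 and used to mark nuclear speckles, was at 258 CPM in neurons and 314 CPM in NPCs (1.22-fold lower, 1.18 to 1.26). Srsf3, the smallest SR protein, was at 466 CPM in neurons and 537 CPM in NPCs (1.15-fold lower, 1.12 to 1.18). Srsf7, its closest relative, which also carries a zinc knuckle, was at 291 CPM in neurons and 297 CPM in NPCs, and no difference was detectable beyond counting error (1.02-fold lower, 0.985 to 1.05), while with scaling by total reads it was lower in neurons, at a log2 ratio of −0.09. Both proteins are known for linking splicing to mRNA export.

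Srsf12 was the SR gene higher in neurons. It was at 17.4 CPM in neurons (397 reads) and 8.64 CPM in NPCs (233 reads), 2.02-fold higher in neurons (1.71 to 2.38), and its log2 ratio with 1 CPM added was 0.93, at percentile 95.4 of all genes. Srsf10, its paralog, a splicing regulator that turns into a repressor when it loses its phosphates, was at 217 CPM in neurons and 237 CPM in NPCs (1.09-fold lower in neurons, 1.05 to 1.13). For each read of Srsf10 there were 0.0803 reads of Srsf12 in neurons (0.0723 to 0.0890) and 0.0365 in NPCs (0.0319 to 0.0416). Srsf10 has 2 near-identical pseudogenes, so its reads may be misassigned and this ratio is uncertain. Human SRSF12 is known to oppose classical SR proteins in splicing assays. The remaining SR genes were Srsf11, which binds the factor that recognises the polypyrimidine tract, at 240.4 CPM in neurons and 272 CPM in NPCs, 1.13-fold lower in neurons (1.09 to 1.17), and Sfrs18, now called Pnisr, at 305 CPM in neurons and 359 CPM in NPCs, 1.18-fold lower (1.14 to 1.22).

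The pairs Rbm24 with Rbm38 and Srsf12 with Srsf10 held the largest spreads of log2 ratio among 15 paralog groups, 1.72 and 1.06, while the next was 0.46 for Rbm15b with Rbm15. The promoters of these 4 genes are printed because each pair sets a gene higher in neurons beside a relative that was not. Sequences are RefSeq windows of build GRCm38.p6, from 250 bases before to 50 after the annotated start, 5′ to 3′ on the coding strand, which is the plus strand for all 4. Capitals mark CpG dinucleotides. The windows lie at chr13:46418050-46418349 for Rbm24, chr2:173021652-173021951 for Rbm38, chr4:33209022-33209321 for Srsf12 and chr4:135855821-135856120 for Srsf10.
Rbm24: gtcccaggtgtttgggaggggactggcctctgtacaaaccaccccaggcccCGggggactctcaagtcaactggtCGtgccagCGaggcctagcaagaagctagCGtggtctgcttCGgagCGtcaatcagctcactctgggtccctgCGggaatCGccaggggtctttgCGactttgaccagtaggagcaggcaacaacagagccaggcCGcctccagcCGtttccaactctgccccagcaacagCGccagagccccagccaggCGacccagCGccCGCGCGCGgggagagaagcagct
Rbm38: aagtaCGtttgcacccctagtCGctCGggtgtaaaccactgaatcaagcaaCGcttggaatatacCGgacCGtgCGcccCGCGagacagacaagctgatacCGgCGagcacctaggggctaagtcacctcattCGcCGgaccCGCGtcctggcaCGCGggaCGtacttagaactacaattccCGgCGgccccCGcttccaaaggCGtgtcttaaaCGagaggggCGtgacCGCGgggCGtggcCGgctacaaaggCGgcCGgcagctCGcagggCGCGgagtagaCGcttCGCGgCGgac
Srsf12: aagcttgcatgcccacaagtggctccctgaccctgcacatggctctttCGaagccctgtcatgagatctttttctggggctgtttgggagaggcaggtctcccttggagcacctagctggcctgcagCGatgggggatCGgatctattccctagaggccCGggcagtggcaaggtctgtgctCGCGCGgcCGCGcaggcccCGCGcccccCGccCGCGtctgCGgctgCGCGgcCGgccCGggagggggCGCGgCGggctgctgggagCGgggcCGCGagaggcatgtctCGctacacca
Srsf10: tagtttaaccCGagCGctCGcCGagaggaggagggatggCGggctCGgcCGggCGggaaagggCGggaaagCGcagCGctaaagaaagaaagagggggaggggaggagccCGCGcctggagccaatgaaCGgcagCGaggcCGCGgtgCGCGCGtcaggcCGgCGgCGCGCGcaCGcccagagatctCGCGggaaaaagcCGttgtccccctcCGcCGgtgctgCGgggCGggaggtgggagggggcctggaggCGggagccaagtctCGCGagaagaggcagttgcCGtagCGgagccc

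In both of these pairs, which were picked by their ratios, the gene higher in neurons had the window with fewer CpG dinucleotides. Rbm24 had 18 and Rbm38 had 37, and Srsf12 had 26 and Srsf10 had 38. The next pair by spread went the other way. Rbm15b, with the higher ratio, had 46 and Rbm15 had 23. Low CpG counts were also found among genes near equality. Of 49 members within 1.5-fold that had a window, 8 had fewer CpG in their richest window than Rbm24, among them Rbm25 with 0 and Rbm41 with 4. In 22 of these 49 the richest window had 26 or fewer, the count of Srsf12. Windows were found for 55 members, and Rbm20 was not among them. The median was 25.0 CpG over the 72 member windows and 13.0 over 20996 windows of protein-coding genes, with median GC contents of 63.0% and 56.7%. The E-box forms CAGATG and CAGCTG, which proneural factors are known to bind, and the TATA motif TATAAA were searched on both strands and were absent from the 4 windows shown. They were present in 9.72%, 8.33% and 12.5% of member windows, and in 14.5%, 15.7% and 12.6% of all windows. The Sp1-type motif GGGCGG, also searched on both strands, occurred 1 time in the Srsf12 window and 3 times in that of Srsf10, and in 65.3% of member windows and 46.6% of all windows.

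**Figure D3:**
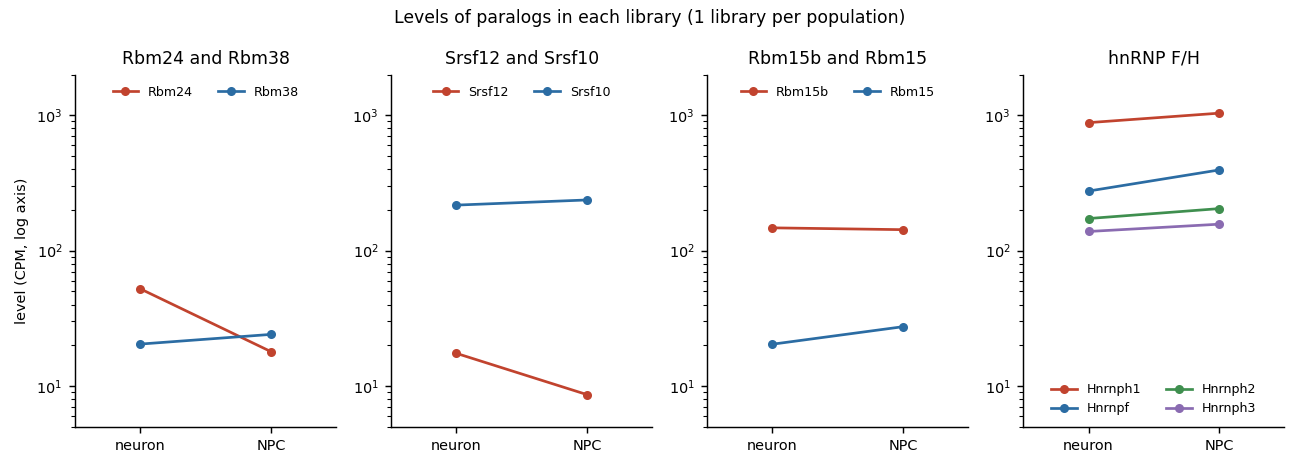
Level of each gene in the neuron library (left) and the NPC library (right) on a log axis in CPM, for 3 paralog pairs and the hnRNP F/H group, with 1 library per population and so no error bars. The lines of Rbm24 and Rbm38 cross, Srsf12 is higher in neurons while Srsf10 is not, and all 4 hnRNP F/H genes are lower in neurons.

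hnRNP genes had the narrowest range of ratios of the 3 classes when Srsf12, at 0.93, is counted among the SR genes. The other SR genes ran from −0.33 to −0.03, which is narrower still. Of 20 hnRNP genes, 3 were higher in neurons (15.0%) and 15 were lower (75.0%), beside 33.6% and 34.6% of all genes. On the total-read scaling 2 were higher and 17 lower, beside 27.6% and 41.8% of all genes. Ratios ran from −0.52 to 0.13, with a median of −0.179 (0.883 times the NPC level) and 17 of 20 within 1.25-fold. Their summed level was 10163 CPM in neurons and 11262 CPM in NPCs, and that of the RBM genes 3386 CPM in neurons and 3552 CPM in NPCs. All 4 hnRNP F/H genes, whose proteins bind runs of guanine, were lower in neurons. Hnrnpf had the largest difference of the class, at 276 CPM in neurons and 395 CPM in NPCs, 1.43-fold lower in neurons (1.39 to 1.48). It has 6 near-identical pseudogenes, so its level is uncertain if reads with several matches were lost, split or counted more than once. Hnrnph1 was at 882 CPM in neurons and 1037 CPM in NPCs (1.17-fold lower, 1.15 to 1.20), Hnrnph2 was 1.18-fold lower and Hnrnph3 1.13-fold lower.

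Hnrnpm, a protein that binds GU-rich sequence near exons, was at 313 CPM in neurons and 426 CPM in NPCs, 1.36-fold lower in neurons (1.32 to 1.40). Hnrnpul1 of the hnRNP U group, which acts in the DNA damage response, was at 199.8 CPM in neurons and 251 CPM in NPCs, 1.26-fold lower (1.21 to 1.31). Hnrnpu itself, known as scaffold attachment factor A, was at 993 CPM in neurons and 1165 CPM in NPCs (1.17-fold lower, 1.15 to 1.19), and Hnrnpul2 was 1.06-fold lower (1.03 to 1.09). Hnrnpl, which binds CA repeats, and Hnrpll, known from CD45 splicing in T cells, were both 1.16-fold lower in neurons. Hnrnpl was at 291 CPM in neurons and 338 CPM in NPCs, and Hnrpll at 135 CPM in neurons and 157 CPM in NPCs. The pair had the smallest spread of any paralog group. Hnrnpc, which binds uridine tracts, was 1.13-fold lower in neurons (1.10 to 1.17), and Hnrnpk, which binds cytosine-rich sequence, 1.09-fold lower (1.07 to 1.11).

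The hnRNP A/B and D groups went both ways. Hnrnpa2b1, which carries mRNA in dendrites and axons, was at 1556 CPM in neurons and 1822 CPM in NPCs, 1.17-fold lower in neurons (1.16 to 1.19). Hnrnpa1, the best-known splicing repressor of the group, was at 627 CPM in neurons and 657 CPM in NPCs (1.05-fold lower, 1.02 to 1.07). Hnrnpa0, which binds AU-rich elements, was at 688 CPM in neurons and 639.9 CPM in NPCs, 1.07-fold higher in neurons (1.05 to 1.10), and Hnrnpa3 was 1.03-fold higher (1.01 to 1.06). Hnrnpa1 and Hnrnpa3 have 9 and 27 near-identical pseudogenes, so differences of this size are uncertain. Hnrpdl was at 530.0 CPM in neurons and 484 CPM in NPCs, 1.09-fold higher in neurons (1.07 to 1.12), while Hnrnpd, an AU-rich element binding factor of mRNA decay, was at 332 CPM in neurons and 372 CPM in NPCs, 1.12-fold lower (1.09 to 1.15). Hnrnpab (794 CPM in neurons and 792 CPM in NPCs) and Hnrnpr (316 CPM in neurons and 319 CPM in NPCs), which binds actin mRNA in axons, did not differ detectably. Scaling by total reads shifts log2 ratios without an added value by −0.067, and with 1 CPM added by less in low genes. Hnrnpab and Hnrnpr were then lower in neurons, at log2 ratios of −0.06 and −0.08, and Hnrnpa3 stood at −0.02, within counting error. The ratio of Hnrnpab is also below 0 with the other scalings tried.

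Per length, hnRNP genes led the members in both libraries. With levels divided by the length of all annotated exons (GENCODE M21, a later annotation than the files' own), Hnrnpab was at 285 CPM per kilobase in both neurons and NPCs, with 29.1% of its exon bases also in a gene on the opposite strand. Hnrnpa0 stood at 257 CPM per kilobase in neurons and 239 in NPCs, Hnrnpa2b1 at 236 in neurons and 277 in NPCs, Hnrnpa1 at 199 in neurons and 208 in NPCs, and Hnrnph1 at 151 in neurons and 177 in NPCs. These were the 5 highest members in each library. The highest SR gene was Srsf1 at rank 8 in both libraries (103 CPM per kilobase in neurons and 126 in NPCs), and the highest RBM gene was Rbm3 at rank 17 in both (57.6 CPM per kilobase in neurons and 67.8 in NPCs).

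**Figure D4:**
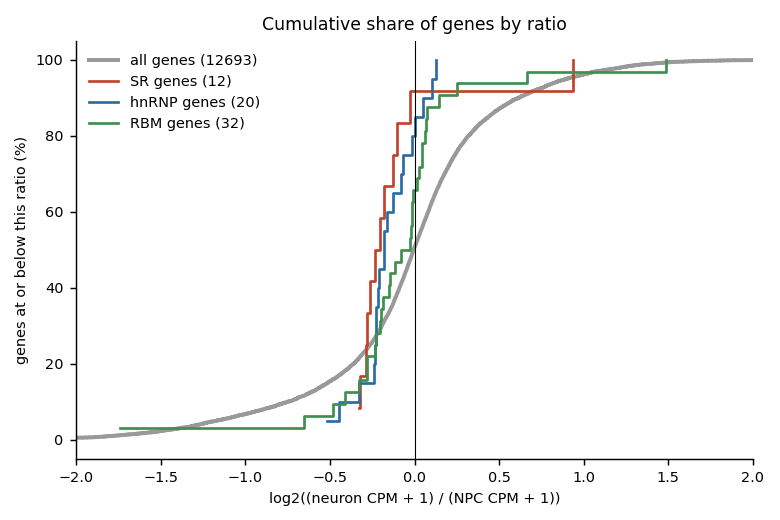
Cumulative share of genes (vertical, %) by log2 ratio of neuron to NPC level with 1 CPM added (horizontal), for SR, hnRNP and RBM genes and for all genes past 1 CPM (grey). The curves of SR and hnRNP genes lie left of the grey curve near the middle, at medians of −0.220 and −0.179 against −0.005, and all 3 classes are steeper than it. The scale stops at −2 and 2, which cuts off some of the grey curve.

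RBM genes had a median near that of all genes but the widest range. Of 32 past 1 CPM, 5 were higher in neurons (15.6%), 15 were lower (46.9%) and 12 did not differ detectably. Of all genes, 33.6% were higher and 34.6% lower. With scaling by total reads 3 were higher, 19 were lower and 10 did not differ detectably. On that scaling 27.6% of all genes were higher and 41.8% lower. The median log2 ratio was −0.053, in a range from −1.74 to 1.49. Among 9 genes of the spliceosome and splice site choice, 1 was higher in neurons (Rbm6, 11.1%) and 4 were lower (44.4%). The other 4 did not differ detectably. All 9 lay within 1.25-fold, beside 58.2% of all genes. With scaling by total reads none was higher and 6 were lower (66.7%, beside 41.8% of all genes). Rbm39, a splicing coactivator, was at 345 CPM in neurons and 419 CPM in NPCs (1.21-fold lower in neurons, 1.18 to 1.25), and Rbm41 was 1.22-fold lower (1.12 to 1.33). Rbm10, which represses exon inclusion, was 1.16-fold lower (1.09 to 1.22), whereas its relative Rbm6 was at 181 CPM in neurons and 173 CPM in NPCs, 1.05-fold higher in neurons (1.01 to 1.09). Scaled by total reads, Rbm6 had a log2 ratio of 0.00. Rbm5, the third of this group and a regulator of apoptosis gene splicing, did not differ detectably (1.03-fold, 0.998 to 1.07). Rbm17, a factor of splice site recognition, was 1.14-fold lower in neurons (1.07 to 1.22), and no difference was detectable for Rbm22, Rbm25 and Rbm42. Rbm22 and Rbm25 were lower in neurons with scaling by total reads, at −0.15 and −0.09.

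Among factors of RNA decay, export and methylation, 4 of 7 were lower in neurons (57.1%, beside 34.6% of all genes). The other 3 did not differ detectably. Rbm33 was lower as well with scaling by total reads, at a log2 ratio of −0.08. Rbm7, of the nuclear exosome targeting complex, was at 37.05 CPM in neurons and 52.2 CPM in NPCs, 1.41-fold lower in neurons (1.29 to 1.54). It has 2 near-identical pseudogenes, so its reads may be misassigned. Rbm15, which guides the N6-methyladenosine writer to transcripts, was at 20.4 CPM in neurons and 27.4 CPM in NPCs, 1.35-fold lower (1.20 to 1.52). Its paralog Rbm15b, which shares that role, was at 147 CPM in neurons and 143 CPM in NPCs, a difference that counting error covers (1.03-fold, 0.985 to 1.08). Rbm26, tied to nuclear RNA decay, was 1.11-fold lower in neurons (1.05 to 1.17), and its relative Rbm27 1.15-fold lower (1.08 to 1.22). Rbm8a, the Y14 subunit of the exon junction complex whose partial loss in mice gives a small brain, was at 74.1 CPM in neurons and 74.5 CPM in NPCs, and Rbm33 at 276 CPM in neurons and 279 CPM in NPCs. Neither differed detectably.

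The nucleolar factors, the cold shock gene and the Rbm4 group made up most of the rest. Rbm19, needed for ribosome production, was at 29.7 CPM in neurons and 37.6 CPM in NPCs, 1.26-fold lower in neurons (1.15 to 1.40), and Rbm28, a nucleolar protein, was 1.11-fold lower (1.04 to 1.18). Rbm34 was at 29.6 CPM in neurons and 28.3 CPM in NPCs (1.05-fold, 0.942 to 1.16), which is no detectable difference. Rbm3, a cold-inducible protein that promotes translation, was at 271 CPM in neurons and 318 CPM in NPCs, 1.18-fold lower (1.14 to 1.22). Rbm4, a relative of the fly protein lark, was at 96.8 CPM in neurons and 87.5 CPM in NPCs, 1.11-fold higher in neurons (1.04 to 1.17), a difference within counting error when scaled by total reads. Its paralog Rbm4b was at 121 CPM in neurons and 115 CPM in NPCs and did not differ detectably (1.05-fold, 0.9995 to 1.11). Of the Rbm4 exon bases, 60.5% lie in another gene annotated on the same strand, so its reads cannot be fully assigned. Rbm14, a coactivator found in paraspeckles, did not differ detectably (85.8 CPM in neurons and 87.1 CPM in NPCs), though it was lower in neurons with scaling by total reads (−0.09). Rbm18 was the fourth highest member by ratio, at 128 CPM in neurons and 108 CPM in NPCs, 1.19-fold higher in neurons (1.13 to 1.25). Rbm12 was 1.08-fold lower (1.03 to 1.14), and Rbm12b did not differ detectably.

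Genes that act with these factors were mostly as close to equal. Of 34 core spliceosome genes, 3 were higher in neurons (8.82%), 16 were lower (47.1%) and 15 did not differ detectably. Of all genes, 33.6% were higher and 34.6% lower. On the total-read scaling 2 were higher (5.88%) and 25 lower (73.5%), beside 27.6% and 41.8% of all genes. None was 1.5-fold apart, while 76.3% of all genes lay within 1.5-fold, and the median log2 ratio was −0.07. The largest differences were those of Prpf3 of the U4/U6 particle (34.3 CPM in neurons and 45.2 CPM in NPCs, 1.32-fold lower), the helicase gene Snrnp200 (1.23-fold lower) and Prpf40b (1.23-fold higher in neurons, 1.16 to 1.30). Of 10 measured kinases and importins of SR proteins, 2 were higher in neurons, 3 were lower and 5 did not differ detectably, again with 0 at least 1.5-fold apart. With scaling by total reads 0 were higher and 4 lower. Tnpo1, the importin of hnRNP A1, was at 237 CPM in neurons and 301 CPM in NPCs (1.27-fold lower, 1.23 to 1.32). The SR protein kinase gene Clk2 was 1.23-fold lower (1.14 to 1.33) and Prpf4b 1.14-fold lower (1.10 to 1.18).

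Among 18 SR-related splicing factors, 5 were higher in neurons (27.8%) and 10 lower (55.6%), or 2 and 13 on the total-read scaling. Of all genes, 33.6% were higher and 34.6% lower, or 27.6% and 41.8% on the total-read scaling. The 1 at least 1.5-fold apart was Srrm3, a neuronal microexon regulator. Srrm3 was at 48.2 CPM in neurons and 27.03 CPM in NPCs (1.78-fold higher in neurons, 1.62 to 1.96). Srrm4 of the same list was at 507 CPM in neurons and 511 CPM in NPCs and did not differ detectably (0.992-fold, 0.967 to 1.02). With scaling by total reads Srrm4 was lower in neurons. Pnn and Rsrc1 were 1.24-fold and 1.19-fold lower. Of 27 measured hnRNP relatives under other names, 7 were higher in neurons (25.9%) and 16 lower (59.3%), with a median of −0.14. With scaling by total reads 5 were higher (18.5%) and 18 lower (66.7%). The STAR family gene Khdrbs2 was at 33.1 CPM in neurons and 13.01 CPM in NPCs (2.54-fold higher, 2.24 to 2.89), Ralyl was 1.78-fold higher (1.57 to 2.03) and Rbms1 was at 2.50 CPM in neurons and 5.23 CPM in NPCs (2.09-fold lower, 1.53 to 2.89). Of 6 measured arginine methyltransferase genes, whose enzymes modify hnRNPs, 3 were higher in neurons and 3 did not differ detectably, and none reached 1.5-fold. The median was 0.11. Carm1 was no longer higher with scaling by total reads. Prmt2 led with 107 CPM in neurons and 72.8 CPM in NPCs (1.47-fold higher, 1.39 to 1.57), before Prmt7 (1.15-fold, 1.05 to 1.26) and Carm1 (1.09-fold, 1.04 to 1.15). Of 10 nonsense-mediated decay genes, 2 were higher in neurons, 4 were lower and 4 did not differ detectably, with a median of −0.08. With scaling by total reads 0 were higher and 8 lower. Upf3a was 1.13-fold lower (1.02 to 1.25), Upf2 1.11-fold lower (1.04 to 1.18), and the member listed under the older symbol 1500002O20Rik 1.14-fold higher (1.02 to 1.28).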

How the data were processed

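Members, gene lists and thresholds were chosen with earlier results of these data known. Per the submitters' processing notes, the authors used edgeR, SAMtools 0.1.18, TopHat 1.2.0, CASAVA 1.9 and mouse build mm9, in roles that are not stated. The annotation, the strand and the handling of reads with several matches are not stated either, so reads of near-identical or overlapping genes may be misassigned. The deposited values are a signal that is never below 0 and steps by 1.12797 in the neuron and 0.952727 in the NPC library, per the values themselves. Values divided by their step were whole within 0.05 reads for 100% of genes in both libraries, with values under 0.01 taken as 0. At 1 CPM there were 22.8 reads in the neuron and 26.97 in the NPC library.

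The analysis was laid out for 1 library per population, so edgeR 4.0.16 in R 4.3.3 served only for TMM (trimmed mean of M-values) factors, and no count test was run. Fold intervals used SciPy 1.17.1, and the calculations were tested on simulated data. The 10 largest log2 ratios in each direction and paralog groups with a member past 1.5-fold are given in full. The 3 largest per related list are named with their folds, some without levels or intervals. Near-identical copies (at least 95% over 200 bases) were sought with BLAST 2.17.0 among GENCODE M21 pseudogenes, processed and unprocessed. Of the 67 members, 14 had 1 to 27. Separately, 8 members shared over 25% of their exon bases with another gene. Reads of all these members may be misassigned, also where this is not repeated beside their values. Copies among protein-coding genes were not sought. Protein sequences were to be shown but were not used here. Alternatives were other added values, minima and scalings.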

Additional observations from a re-analysis of the deposited data

How the results depend on the processing

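No paired analysis was possible because each population has 1 library, and no replicate could be left out. With 0.1 CPM added in place of 1, 3 members were at least 2-fold higher in neurons in place of 1 (5.71% and 3.85% of all genes), since low genes are then less damped. At least 1.5-fold higher in NPCs were 2 members, but 1 with 5 CPM added and 1 when 10 CPM was required. The shares of all genes were 13.1%, 8.27% and 10.2%, so they fell as well. Members at least 1.5-fold higher in neurons fell from 3 to 2 in both of these settings. The share of all genes fell from 10.6% to 7.01% with 5 CPM added and to 9.33% when 10 CPM was required. Scaling by total reads moved the median log2 ratio of SR genes to −0.287 (−0.220 as deposited) and that of hnRNP genes to −0.246 (−0.179 as deposited), with all genes at −0.069 (−0.005 as deposited). With that scaling the log2 ratios of 35 of 64 members moved beyond their counting intervals, and 10 members changed their call, 3 from higher to not detectable and 7 from not detectable to lower. Trimmed mean of M-values and upper quartile scalings moved log2 ratios without an added value by −0.004 and −0.013, within the counting interval of all 64 members. No member at least 1.5-fold apart changed direction under these alternatives. In an alternative chosen after seeing the data, 21 members with near-identical copies or over 25% of exon bases in another gene were left out. By the sign of the log2 ratio alone, 32 of the remaining 43 were on the NPC side (74.4%), beside 50.7% of all genes. Their median was −0.178, beside −0.005 for all genes. Rbm11, Rbm43 and the members under 1 CPM are limited by depth.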
